A study of Mus musculus with 14 samples.

Results

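The genes described here are the heat shock proteins, their Hsp40 partners and the chaperones of the endoplasmic reticulum (ER) on a mouse expression array. A gene belonged to the set when its symbol began with Dnaj, Hspa, Hspb, Hspd, Hspe, Hsph, Hsp90 or Pdia, or was Calr or Canx, in the probe annotation table. This gave 67 of the 12393 genes with a probe set of a single symbol, on 134 probe sets. By class, 38 were Hsp40 (Dnaj) genes, 11 cytosolic and mitochondrial Hsp70 genes including Hsph1, 1 was Hsp90aa1, 8 were ER chaperones (Hspa5, Hsp90b1, Calr, Canx, Pdia3, Pdia4, Pdia5 and Pdia6), 8 were small or mitochondrial heat shock genes, and 1 was Hspbp1. For each gene the probe set brightest on average in the 8 arrays of wild-type (WT) hematopoietic stem cells (HSC) was taken. Of the 67 genes, 14 stayed below a log2 value of 5 on all 14 arrays (7 Hsp40, 2 Hsp70 and 5 small heat shock genes), and 49 had a 14-array mean of 5 or above.

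RNA was hybridised to Affymetrix MOE430A arrays, and each of the 7 groups had 2 arrays, A and B. The age series was HSC of male C57Bl/6 WT mice of 2, 6, 12 and 21 mo, sorted as Hoechst-excluding side population cells that were also c-Kit+, Sca-1+ and lineage-. The other groups were whole bone marrow (WBM) of WT mice of 2 mo, and HSC of p53+/m and of p53+/- animals aged 12 mo, from lines back-crossed at least 4 times to C57Bl/6. The m allele of p53 encodes a truncated protein, and p53+/- mice keep 1 working copy. Every HSC array held amplified RNA pooled from 2 to 5 mice, so that an array stands for a pool. One label field gives an age of 2 mo for all samples, and the ages used here are those of the sample titles. The study's methods name the aged mice as C57Bl/6 CD45.1 and give the oldest age as a range that starts at 21 mo.

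Chaperones bind unfolded stretches of protein. The J domain of an Hsp40 protein hands a client to an Hsp70 and drives the ATP hydrolysis that locks it in place, and exchange factors such as the Hsp110 proteins reset the cycle. In the ER, Hspa5 (BiP) plays the part of Hsp70 and Hsp90b1 that of Hsp90, calreticulin and calnexin hold glycoproteins by their sugars, and the Pdia enzymes form and rearrange disulfide bonds. Heat shock factor 1 drives cytosolic chaperone genes through heat shock elements, and the unfolded protein response drives ER chaperone genes through the ER stress response element.

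The promoters of the ER class are shown first because those of 5 of the 8 genes hold the ER stress response element. RefSeq promoters (GRCm38.p6, 250 bases before to 50 after a start) matched 56 of the 67 genes, with 70 promoters, and all 8 ER genes. The ER stress response element, searched on both strands as CCAAT, any 9 bases and CCACG, occurred in 39 of the 32851 promoters of the table (0.119%). It occurred in 8.57% of the chaperone promoters, those of 6 genes, which were 5 of the 8 ER genes and the Hsp40 gene Dnajc3. The stretches below run 5′ to 3′ on the strand of the gene, with the letters that the element fixes in capitals. In Calr and Hsp90b1 the element lies on the opposite strand, and Hsp90b1 holds a second match farther upstream that is not shown.
Hspa5 (chr2:34772010-34772058, + strand): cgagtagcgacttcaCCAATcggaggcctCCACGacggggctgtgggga
Calr (chr8:84847060-84847108, - strand): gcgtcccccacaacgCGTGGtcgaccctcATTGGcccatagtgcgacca
Canx (chr11:50325785-50325833, - strand): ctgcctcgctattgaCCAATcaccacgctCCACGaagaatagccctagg
Pdia6 (chr12:17266476-17266524, + strand): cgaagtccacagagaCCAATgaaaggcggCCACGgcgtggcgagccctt
Hsp90b1 (chr10:86705518-86705566, - strand): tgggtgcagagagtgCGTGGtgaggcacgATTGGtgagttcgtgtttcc
Dnajc3 (chr14:118937812-118937860, + strand): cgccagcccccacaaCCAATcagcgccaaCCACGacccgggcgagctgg
The first base of the match lay 65 bases before the start in Hspa5 and 162 bases before it in Calr. Its downstream part, CCACG, by itself was found in 32.8% of all promoters and in 57.1% of the chaperone promoters. The sequence TGACGTG was found in 2.01% of all promoters and in 2.86% of the chaperone promoters, those of Hspa5 and Hspa1l. These matches describe the letters only.

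The 12 mo arrays did not lie together. Array 12 mo A was nearer the 21 mo means than the 2 mo means in 71.4% of the genes with a mean of 5 or above, against 31.6% for 12 mo B. The control probe set at the 5′ end of the ribosomal 18S RNA read 10.91 and 10.88 at 2 mo, 11.19 and 8.28 at 6 mo, 4.66 (A) and 9.68 (B) at 12 mo, and 4.84 and 5.44 at 21 mo. In the other groups it read 5.32 and 5.14 in WBM, 8.92 and 7.96 in p53+/- HSC, and 5.71 and 7.18 in p53+/m HSC. Markers of monocytes and macrophages (7 genes) averaged 6.30 to 6.67 per array at 21 mo and 4.77 to 4.97 at 2 mo, with 4 and 2 of the 7 at log2 5 or above on both arrays. Neutrophil markers (10 genes) averaged 5.45 to 6.47 at 21 mo and 4.60 to 5.08 at 2 mo, while erythroid markers stayed between 2.18 and 2.33 in all HSC groups. The part of RNA quality and of these cell types in the results was not tested.

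With age, the chaperones that passed the test were 2 ER chaperones and a co-chaperone of the ER. Calr, Hspa5 and Dnajc3 rose, with a fitted change between 2 and 21 mo of 2-fold or more on the quadratic trend of the 8 WT arrays (limma, adjusted p under 0.05), 3 of 67 genes (4.48%) against 1.45% of all genes. None of the 67 fell, against 2.03% of all genes, and at an unadjusted p under 0.05 with 2-fold the counts were 7 higher and 0 lower, beside 6.68% and 7.72% of all genes. The 21 mo arrays lay above the 2 mo arrays without overlap for 34 of the 67 genes, against 21.1% of all genes, and below them for 19, against 49.4%. Those shares include genes of low level, where small differences can set the order. Over all genes 32.7% of the changes were positive, against 49.1% with a mean of 5 or above. The shares without overlap were not computed for the latter. The median log2 change of the 67 genes was 0.32, against -0.02 for all genes, and among the genes with a mean of 5 or above 40 of 49 changes were positive (81.6%), against 49.1%. In bulk RNA, fewer cells of a type and less RNA per cell cannot be told apart.

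Calr, calreticulin, read 11.06 and 11.06 at 2 mo, 11.20 and 11.39 at 6 mo, 12.13 and 11.76 at 12 mo, and 12.56 and 12.15 at 21 mo. Each age lay above the one before it with no overlap between the arrays. The log2 change was 1.36 ± 0.18 (SE), or 2.57-fold, with an adjusted p of 0.0260, and the change reached its midpoint at 9.50 mo on the trend. Its other 2 probe sets at this level changed by 1.22 (adjusted p = 0.115) and 1.38 (adjusted p = 0.0610), the same sign without passing the test.

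Hspa5 read 12.13 and 12.24 at 2 mo, 12.78 and 12.40 at 6 mo, 13.36 and 12.62 at 12 mo, and 13.65 and 13.55 at 21 mo. The 2 mo arrays were the lowest and the 21 mo arrays the highest of the 8. The log2 change was 1.40 ± 0.23 (SE), or 2.63-fold (adjusted p = 0.0414), with a midpoint at 10.42 mo. A second probe set changed by 2.03 (adjusted p = 0.119).

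Dnajc3, the ER-resident J protein known as p58IPK that works with Hspa5, read 8.48 and 8.31 at 2 mo, 8.03 and 8.28 at 6 mo, 8.80 and 8.43 at 12 mo, and 9.24 and 9.40 at 21 mo. Only the 21 mo arrays stood clear of all others. Its log2 change was 1.01 ± 0.18 (SE), or 2.02-fold (adjusted p = 0.0456), close to the 2-fold limit. The means of 9.318 at 21 mo and 8.398 at 2 mo differed by 0.92, or 1.89-fold, which is under that limit, and its midpoint came at 16.36 mo.

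The 3 calls depended on single arrays. When any single array of 2, 6 or 21 mo was left out, 0 of the 67 genes passed in either direction, beside 0.0807% to 0.565% of all genes higher. Without 12 mo A, Calr and Hspa5 passed, beside 3.16% of all genes. Without 12 mo B, 10 passed, beside 4.93% of all genes: these were Calr, Hspa5 and Dnajc3 with Canx, Pdia3, Dnaja2, Dnajb1, Dnajb4, Dnajb6 and Hspa4l.

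**Figure D1:**
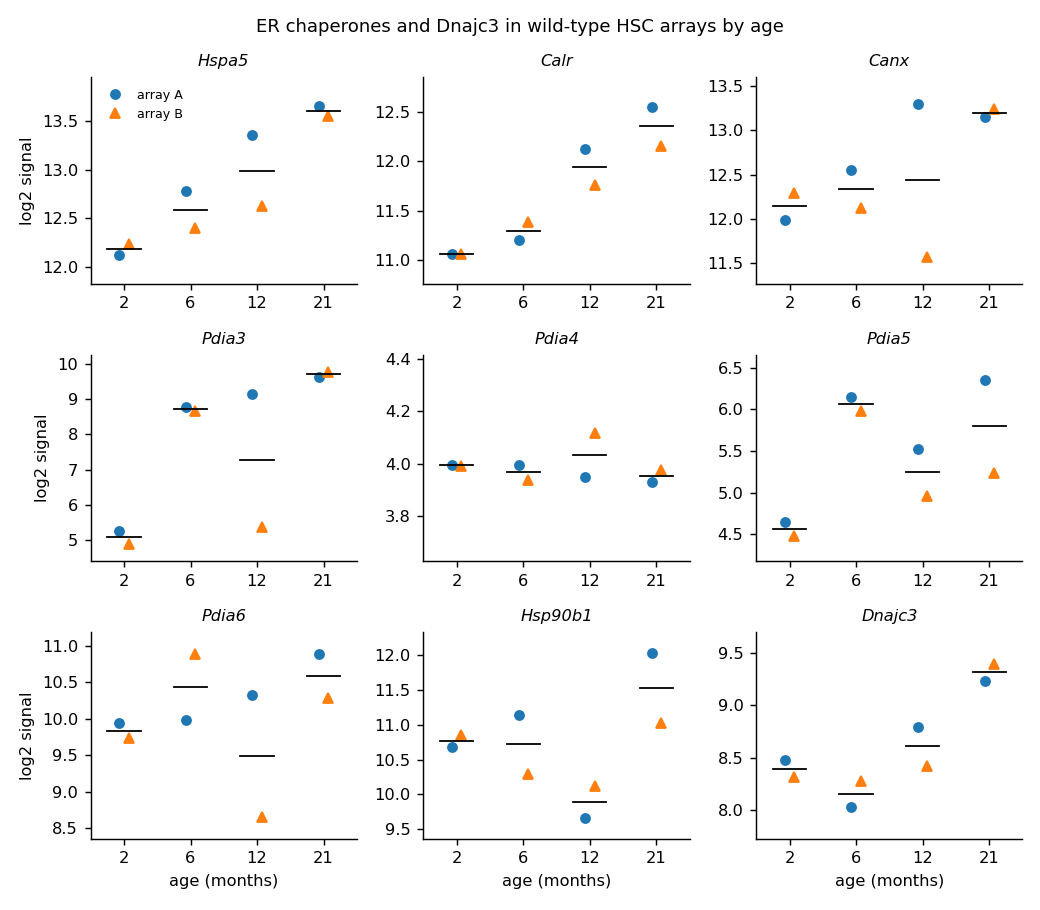
Log2 signal (y axis) of the 8 ER chaperones and Dnajc3 against age in months (x axis) in WT HSC, with circles for array A, triangles for array B and a line at the mean of the 2 arrays. Hspa5 and Calr step up with age (12.13 and 12.24 at 2 mo for Hspa5, 13.65 and 13.55 at 21 mo), and in Pdia3 and Canx array 12 mo B drops to the level of the 2 mo arrays or below it.

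No other gene of the ER class passed the test. The class had a median log2 change of 0.90, with 7 of 8 changes positive. Its 21 mo arrays lay above the 2 mo arrays in 7 genes, beside 21.1% of all genes, those of low level included. They lay below them in 1, Pdia4, with means of only 3.95 and 3.99, beside 49.4%. Canx, calnexin, read 11.99 and 12.29 at 2 mo, 12.56 and 12.12 at 6 mo, 13.30 and 11.56 at 12 mo, and 13.15 and 13.24 at 21 mo. Its change was 1.004 ± 0.51 (SE, adjusted p = 0.349), and 12 mo B was the lowest of the 8 arrays. Its other probe sets changed by 1.04 and 1.10.

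Pdia3 (ERp57), the disulfide isomerase that works with calnexin and calreticulin, had the largest change of the 67 genes and a wide spread. It read 5.27 and 4.89 at 2 mo, 8.77 and 8.65 at 6 mo, 9.15 and 5.38 at 12 mo, and 9.63 and 9.77 at 21 mo. The 2 mo arrays and 12 mo B thus lay near a log2 value of 5, and the other 5 arrays far above it. The log2 change of 3.59 ± 1.60 (SE) had an adjusted p of 0.281, and without 12 mo B the change was 4.17 (adjusted p = 0.0272). In HSC of other groups the level was also split, with 8.80 and 9.48 in p53+/m and 7.82 and 5.20 in p53+/- HSC.

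Hsp90b1 (Grp94), the ER form of Hsp90, read 10.67 and 10.86 at 2 mo, 11.14 and 10.29 at 6 mo, 9.66 and 10.12 at 12 mo, and 12.02 and 11.02 at 21 mo. On this probe set the 12 mo arrays were the lowest. Its change was 0.52 ± 0.48 (SE, adjusted p = 0.656), and a second probe set changed by 1.497 (adjusted p = 0.116). Pdia5 changed by 0.79 (adjusted p = 0.586) and Pdia6 by 0.41 (adjusted p = 0.810). Pdia4 stayed between 3.93 and 4.11 on the 8 arrays, a level too low to follow.

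**Figure D2:**
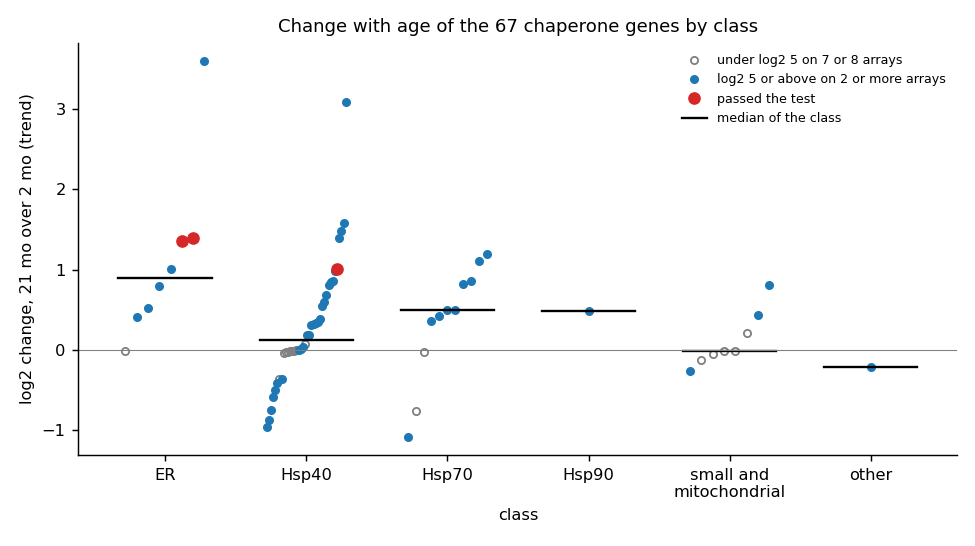
Log2 change with age (y axis, 21 mo over 2 mo on the trend) of the 67 genes by class (x axis), with a bar at the class median, filled blue points for genes at log2 5 or above on 2 or more of the 8 arrays, open points for the others, and red points for the 3 genes that passed the test. The ER class lies highest (median 0.90), and the Hsp40 class spreads from -0.96 to 3.08.

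The Hsp40 class held changes of both signs. Its median change was 0.13, with 24 of 38 positive. The 21 mo arrays lay above the 2 mo arrays in 16 of the 38 genes and below them in 12. The shares of all genes, those of low level included, were 21.1% and 49.4%. Dnaja2, a cytosolic partner of Hsp70, read 6.04 and 6.66 at 2 mo, 7.51 and 8.02 at 6 mo, 9.76 and 4.92 at 12 mo, and 10.03 and 9.74 at 21 mo. Array 12 mo B was the lowest of the 8. Its change was 3.08 ± 1.46 (SE, adjusted p = 0.315), and a second probe set changed by 0.68.

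Dnajb6, which keeps aggregation-prone proteins soluble, read 10.97 and 11.06 at 2 mo, 11.43 and 11.74 at 6 mo, 12.63 and 11.14 at 12 mo, and 12.62 and 12.74 at 21 mo. Its change was 1.59 ± 0.43 (SE, adjusted p = 0.110). The arrays of 21 mo and 12 mo A stood together above the rest. Dnajb4 read 9.21 and 9.49 at 2 mo, 10.20 and 9.98 at 6 mo, 10.54 and 9.31 at 12 mo, and 10.93 and 11.00 at 21 mo, a change of 1.40 ± 0.43 (SE, adjusted p = 0.138). A second, dimmer probe set of Dnajb4 passed the test, with a change of 1.67 (adjusted p = 0.0483), and both of its probe sets had their lowest array at 2 mo and their highest at 21 mo.

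Dnajb2, whose protein also binds ubiquitin, changed by 1.48 ± 0.77 (SE, adjusted p = 0.361), with its highest array at 12 mo A (9.90) and its lowest at 12 mo B (7.35). Dnajb1, the main heat-inducible Hsp40, changed by 0.99 (adjusted p = 0.163) on one probe set and by -0.95 (adjusted p = 0.143) on the other, so no direction holds for it. Dnaja1 changed by 0.55 (adjusted p = 0.333), and a second probe set changed by 1.86 (adjusted p = 0.133). The lower side of the class was led by Dnajc15 (-0.96), Dnajc5 (-0.87), Dnajc4 (-0.75) and Dnajc14 (-0.59). Dnajc5, the cysteine string protein of synaptic and secretory vesicles, read 12.03 and 12.02 at 2 mo, 11.27 and 11.87 at 6 mo, 10.99 and 11.15 at 12 mo, and 11.10 and 11.25 at 21 mo, with both arrays of 12 and of 21 mo below all of the younger ones. Its adjusted p was 0.0612.

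**Figure D3:**
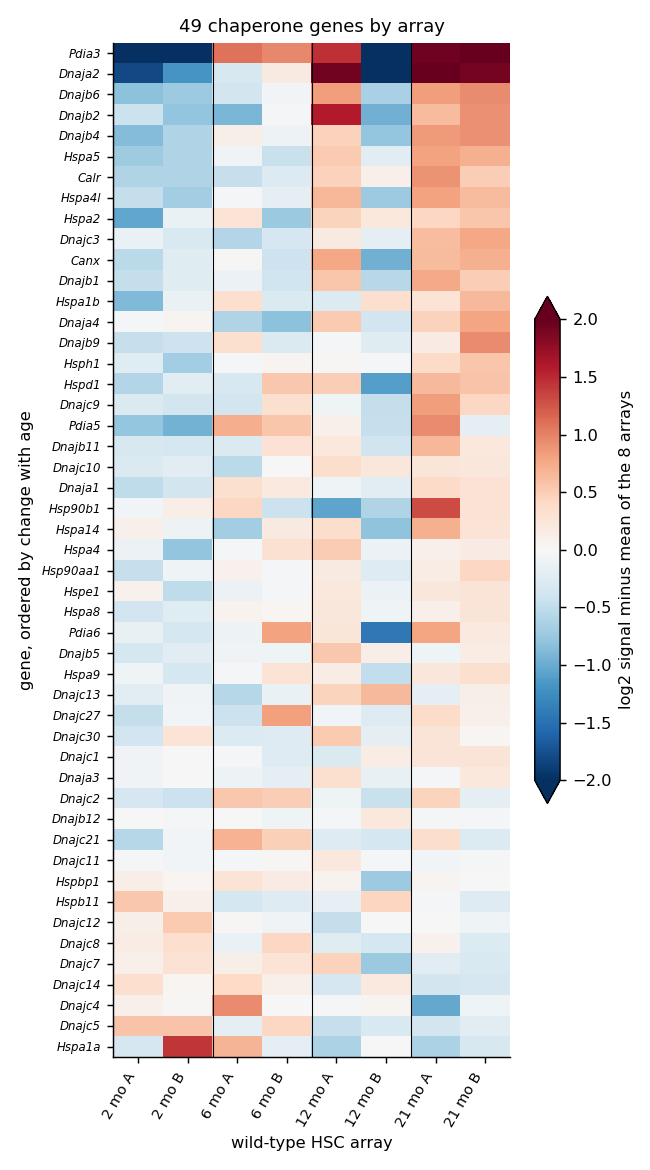
Log2 signal of the 49 chaperone genes with a 14-array mean of 5 or above (rows, ordered by change with age) on the 8 WT HSC arrays (columns), each minus its mean over the 8, in red above and blue below and capped at 2 on either side. Most of the upper rows are blue in both 2 mo arrays and in 12 mo B and red in 12 mo A and both 21 mo arrays, with exceptions such as Hspa2 and Calr in 12 mo B.

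The Hsp70 genes had a median change of 0.50, with 8 of 11 positive and 0 past the test. Hspa8, the constitutive Hsc70, read 13.90 and 14.04 at 2 mo, 14.36 and 14.32 at 6 mo, 14.51 and 14.19 at 12 mo, and 14.39 and 14.54 at 21 mo on its brightest probe set, a change of 0.42 ± 0.13 (SE, adjusted p = 0.143). Its other probe sets changed by 1.37, 0.98 and -0.72, none past the test. The largest positive changes were those of Hspa4l, an Hsp110 exchange factor (1.19, adjusted p = 0.177), and Hspa2 (1.11, adjusted p = 0.180). The most negative was that of heat-inducible Hspa1a, at -1.08 ± 0.58 (SE, adjusted p = 0.377), where the 2 mo arrays themselves stood at 7.04 and 8.80. Hsp90aa1, the inducible cytosolic Hsp90, changed by 0.48 ± 0.20 (SE, adjusted p = 0.258), and its 3 probe sets ran between 0.34 and 1.71. In the mitochondrial chaperonin, Hspd1 (Hsp60) read 11.20 and 11.56 at 2 mo, 11.46 and 12.33 at 6 mo, 12.29 and 10.69 at 12 mo, and 12.44 and 12.36 at 21 mo, a change of 0.81 ± 0.57 (SE, adjusted p = 0.528), again with 12 mo B lowest. Its lid Hspe1 (Hsp10) changed by 0.43 ± 0.19 (SE, adjusted p = 0.277). The small heat shock genes Hspb1, Hspb2, Hspb3, Hspb7 and Hspb8 were below 5 on every array.

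The split of the 12 mo arrays also ran through the chaperones. Of the 49 genes with a mean of 5 or above, 36 (73.5%) were nearer the 21 mo than the 2 mo mean on 12 mo A and 14 (28.6%) on 12 mo B, close to the 71.4% and 31.6% of all such genes. Array A exceeded B by 2-fold or more for 12 of the 49 genes (24.5%) and fell short of it by as much for 0, beside 17.6% and 12.6% of all genes with a mean of 5 or above. The median difference of A over B was 0.65 in the ER class and 0.37 over the 49 genes, against 0.07 over all genes with a mean of 5 or above. The 6 mo arrays were nearer the 21 mo mean for 18 and 19 of the 49.

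Other genes of these pathways, in 2 lists, had median changes with age close to the -0.02 of all genes. Their counts are read beside 1.45% of all genes higher and 2.03% lower. Of 27 co-chaperones and heat shock factors measured, 0 rose and 1 fell (3.7%), with a median change of 0.06. Bag6, which guides misfolded and tail-anchored proteins, fell by 1.59 (adjusted p = 0.0264). Of 36 genes of the unfolded protein response and ER-associated degradation, 1 rose and 1 fell (2.78% each), with a median of 0.03. The one that rose was Ero1a, the oxidase that recharges the Pdia enzymes, at 2.07 ± 0.29 (SE, adjusted p = 0.0301), with means of 9.72 at 21 mo and 7.76 at 2 mo. The one that fell was Edem2, which trims glycoproteins for degradation, at -2.28 ± 0.25 (SE, adjusted p = 0.0206).

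Against whole marrow, 2 mo HSC had 10 chaperone genes higher (14.9%), beside 13.3% of all genes, and 4 lower (5.97%), beside 10.5%. Of the 49 chaperone genes with a mean of 5 or above, 20.4% were higher and 8.16% lower. Both shares lay under those of all such genes, 25% and 14.6%. Marrow is a mixture in which erythroid and granulocytic cells abound, and the erythroid markers averaged 2.22 to 2.31 in 2 mo HSC and 11.32 to 11.45 in WBM. On the probe sets used for the genes, none of the 8 ER genes passed the test in either direction. Their median difference was -0.59, with 2 of 8 positive. A second probe set of Hsp90b1 did pass as lower in HSC, at -2.06 (adjusted p = 0.0132), beside -1.10 (adjusted p = 0.176) on the one used. The genes that did pass were Hsp70 genes, J proteins, Hspbp1 and Hspb11.

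The heat-inducible pair Hspa1a and Hspa1b stood among the largest differences. Hspa1b read 9.13 and 9.88 in HSC, against 6.15 and 6.09 in WBM. The gap was 3.38 ± 0.36 on the log2 scale (SE, adjusted p = 0.00133), and Hspa1a read 7.04 and 8.80 in HSC, against 4.02 and 4.19 in WBM (3.82 ± 0.61, SE, adjusted p = 0.00661). The 3 Hspa1b probe sets were all higher in HSC, by 2.30 to 3.38. The 2 genes are near-identical copies whose promoters share 296 of 300 bases, and a probe set named for one may read both. Both promoters hold the heat shock element GAANNTTC, shown here with the fixed letters in capitals, 104 bases before the start, beside those of Hspe1 and Dnajb6, where it overlaps TTCNNGAA.
Hspa1a (chr17:34972238-34972275, - strand): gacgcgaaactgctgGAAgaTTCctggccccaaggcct
Hspa1b (chr17:34959320-34959357, - strand): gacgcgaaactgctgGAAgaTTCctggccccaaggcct
Hspe1 (chr1:55088044-55088091, + strand): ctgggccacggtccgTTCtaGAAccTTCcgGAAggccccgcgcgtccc
Dnajb6 (chr5:29735837-29735879, + strand): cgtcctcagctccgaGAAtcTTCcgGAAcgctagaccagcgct
GAANNTTC was found in 7.86% of all promoters and TTCNNGAA in 8.52%, both of which read the same on either strand. Among the 70 chaperone promoters they occurred in 20.0% and 11.4%, those of 12 and 6 genes, none of them of the ER class.

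The J proteins higher in HSC were Dnajc12, Dnajc27, Dnajc1, Dnajb9 and Dnajc5. Dnajc12, a partner of aromatic amino acid hydroxylases, read 7.92 and 8.32 in HSC, against 4.45 and 4.26 in WBM (3.77 ± 0.19, SE, adjusted p = 7.3e-05). Dnajc27, which carries a Rab-like GTPase fold, read 6.91 and 7.33 in HSC, against 3.83 and 4.17 in WBM (3.12 ± 0.41, SE, adjusted p = 0.00321). The WBM arrays of Dnajc12, Dnajc27, Hspa1a and Hspbp1 lay below 5, a low level at which the size of a difference is uncertain. The ER J proteins Dnajb9 and Dnajc1 were higher by 1.10 and 1.31.

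Outside the J proteins, Hspbp1, an exchange factor of Hsp70, was higher by 2.06 ± 0.27 (SE, adjusted p = 0.00317), Hspb11, an intraflagellar transport protein (Ift25), by 1.95, and the mitochondrial Hsp70 Hspa9 by 1.003. The 4 genes that were lower in HSC were all J proteins. Dnajc9, a chaperone of histones H3 and H4, read 9.82 and 9.75 in HSC, against 11.72 and 11.66 in WBM (-1.90 ± 0.27, SE, adjusted p = 0.00402). Dnaja4 (-1.53), Dnajb4 (-1.52) and the endosomal Dnajc13 (-1.45) were the others. Pdia3 (-3.25, adjusted p = 0.0951) and Dnajb2 (-2.48, adjusted p = 0.0817) missed the threshold. With the mean over the probe sets of a gene, Dnajc1, Dnajc5, Hspa9 and Hspb11 lost their calls. Dnajb1 then gained one as higher and Hsp90b1 as lower. With the array letter as a replicate block, Dnajb9 lost its call. Without 12 mo A, and also without 12 mo B, 7 genes were lower, with Pdia3, Dnajb2 and Canx added, beside 12.2% of all genes. The calls of Dnaja4, Dnajb4, Dnajb9 and Hspa9 were lost without any single 2 mo array of HSC or WBM, that of Dnajb4 also without any 6 or 21 mo array, that of Dnajb9 without either 12 mo array, and that of Dnajc5 without WBM A.

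**Figure D4:**
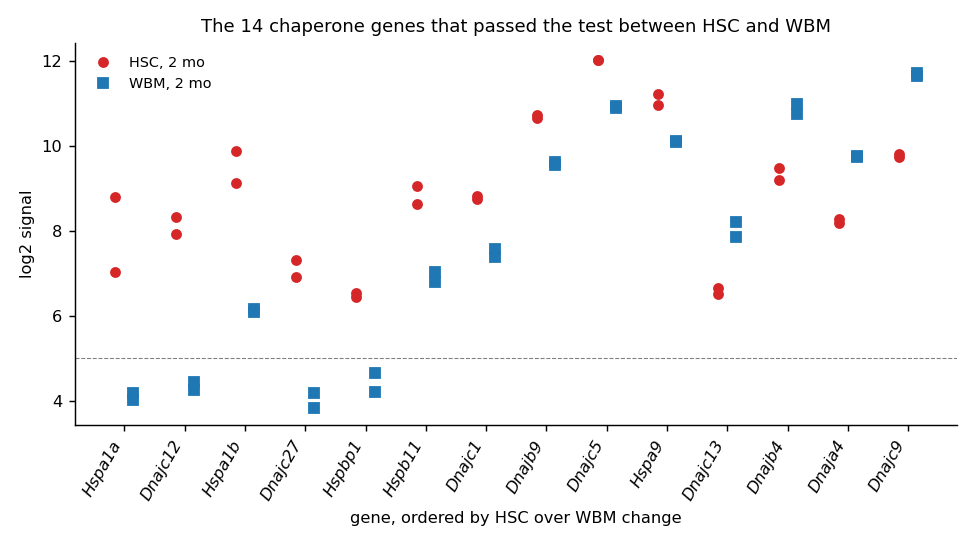
Log2 signal (y axis) of the 14 chaperone genes past the test between 2 mo HSC (circles, left) and 2 mo WBM (squares, right), 2 arrays each, ordered by the difference (x axis), with a dashed line at log2 5. The 10 genes on the left were higher in HSC and the 4 on the right lower, and Hspa1a, Dnajc12, Dnajc27 and Hspbp1 lay below 5 in WBM.

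The 2 pathway lists are read against the same 13.3% of all genes higher and 10.5% lower in HSC. Among all genes with a mean of 5 or above, 25% were higher and 14.6% lower. Of the 27 co-chaperones and heat shock factors, 9 were higher (33.3%) and 0 lower, among them Ppp5c (3.97), Bag5 (3.001), Bag6 (2.97) and Unc45a (2.60), a chaperone of myosin. Of the 36 genes of the unfolded protein response, 8 were higher (22.2%) and 4 lower (11.1%). The higher ones included the stress-induced factors Trib3 (6.43), Ddit3, known as CHOP (3.91), and Atf4 (1.41), and the lower ones were Ero1a (-2.94), the sensors Atf6 (-1.96) and Eif2ak3, known as PERK (-1.81), and Wfs1 (-1.38). The WBM means of Trib3 (2.93) and Ppp5c (4.35) and the HSC mean of Atf6 (3.21) lay below 5. At such low levels the size of a difference is uncertain.

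Between genotypes at 12 mo no chaperone gene passed the test. For p53+/m over p53+/- HSC the count was 0 higher and 0 lower of 67, beside 0.0888% and 0.129% of all genes, and at an unadjusted p under 0.05 with 2-fold it was 0 higher and 1 lower, beside 1.71% and 1.86%. For p53+/m over WT HSC it was 0 and 0, beside 0.137% and 0.307%, and 2 higher and 1 lower unadjusted, beside 1.44% and 3.04%. For p53+/- over WT HSC it was 0 and 0, beside 0.0807% and 0.113%, and 0 higher and 1 lower unadjusted, beside 0.888% and 2.21%. The 2 comparisons with WT share the 12 mo arrays A and B, which themselves stand apart.

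In the ER class all 8 differences of p53+/m over WT HSC were positive, with a median of 0.45. Over all genes 42.3% were positive, and 42.6% of those with a mean of 5 or above. Of p53+/- over WT HSC, 7 of 8 were positive, with a median of 0.36, beside 34.2% and 44.4%. Pdia4, positive in both, read only 3.95 and 4.11 in WT HSC of 12 mo. The size of these medians depended on the WT array. Over single pairs of arrays they ran between -0.01 and 1.05 in p53+/m and between -0.03 and 0.78 in p53+/-. Against 12 mo A alone, 5 of 8 genes were positive in p53+/m, with Canx, Pdia3 and Pdia6 lower, and 6 of 8 in p53+/-, with Canx and Pdia3 lower. Hsp90b1 read 11.69 and 10.83 in p53+/m, 9.99 and 10.45 in p53+/-, and 9.66 and 10.12 in WT HSC. The p53+/m arrays lay above those of both other groups, by 1.04 ± 0.46 over p53+/- (SE, adjusted p = 0.572) and 1.37 ± 0.46 over WT (SE, adjusted p = 0.322). A second probe set of Hsp90b1 went the other way, at 9.62 and 8.83 in p53+/m, 9.73 and 10.19 in p53+/-, and 10.51 and 9.21 in WT HSC.

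Dnaja3, the mitochondrial J protein Tid1, read 4.93 and 5.84 in p53+/m, 6.56 and 6.81 in p53+/-, and 6.97 and 6.51 in WT HSC. It was lowest in p53+/m on both arrays, at -1.30 ± 0.29 against p53+/- (SE, adjusted p = 0.163) and -1.35 ± 0.29 against WT (SE, adjusted p = 0.120). Dnajb9, an ER J protein, read 11.51 and 12.01 in p53+/m, 10.79 and 10.91 in p53+/-, and 11.10 and 10.90 in WT HSC, a difference of 0.91 (adjusted p = 0.384) over p53+/-. Hspb11 was the largest negative difference of p53+/- against WT, at -1.51 ± 0.33 (SE, adjusted p = 0.188).

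**Figure D5:**
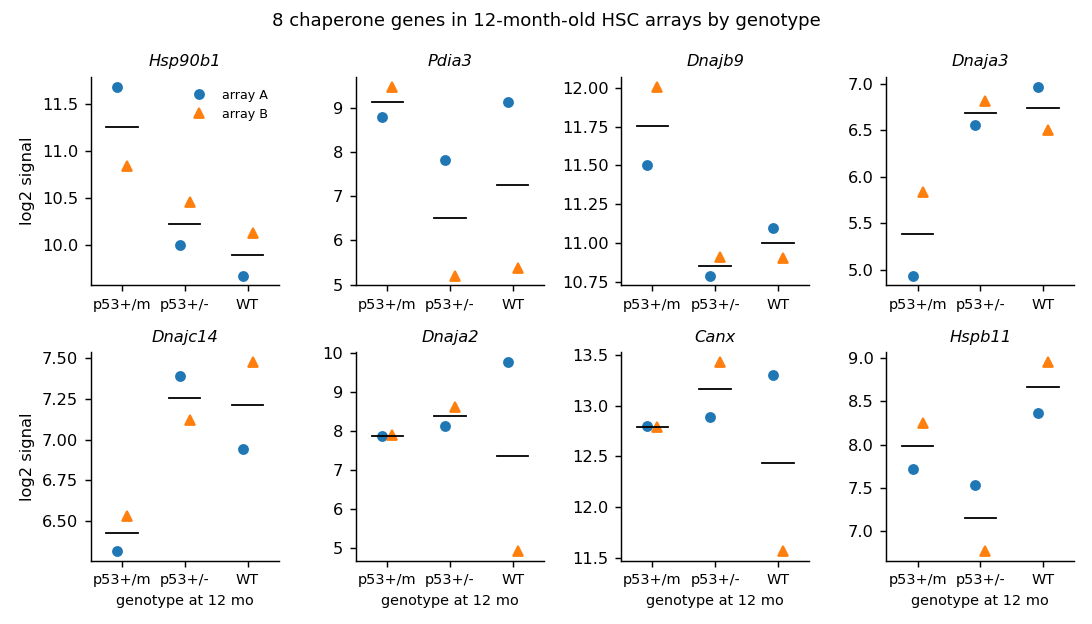
Log2 signal (y axis) of 8 chaperone genes in HSC of 12-mo-old p53+/m, p53+/- and WT mice (x axis), circles for array A, triangles for array B and a line at the mean. The p53+/m arrays stand apart from both others in Hsp90b1, Dnajb9, Dnaja3 and Dnajc14, and the WT arrays of Pdia3, Dnaja2 and Canx are split (Dnaja2 at 9.76 and 4.92).

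Single 12 mo WT arrays decided the direction of the most variable genes. Dnaja2 read 7.86 and 7.89 in p53+/m, 8.12 and 8.60 in p53+/-, and 9.76 and 4.92 in WT HSC. Its difference of p53+/- over WT was 1.02 with both WT arrays and -1.40 without 12 mo B. When 12 mo A was left out, 3 genes passed as higher in p53+/m over WT (Dnaja2, Hspa4l and Dnajb4), beside 1.07% of all genes, and 1 as lower (Dnajc14), beside 1.38%. In p53+/- over WT, 4 then passed as higher (Canx, Dnaja2, Dnajb6 and Hspa4l), beside 2.22%, and 1 as lower (Hspb11), beside 2.44%. When 12 mo B was left out, 0 passed as higher, beside 1.53% of all genes in p53+/m and 0.339% in p53+/-, and Dnaja2 passed as lower in p53+/m, beside 3.07%.

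The WT trend also gives each gene's level an age. Of the 67 genes, 24 had a trend with an R squared over 0.5 (35.8%, against 29.8% of all genes), and the mean of the 2 arrays of each genotype was read on it within 2 to 21 mo. The median age was 13.2 mo in p53+/m and 13.1 mo in p53+/- HSC, with 12 genes younger and 12 older in p53+/m. Over all genes it was 10.01 mo in p53+/m and 11.6 mo in p53+/-, with 52.8% younger. Of the 10 chaperone genes whose trend ran in 1 direction, 2 were younger and 8 older in p53+/m, beside 56.5% younger of all such genes. Hspa5 read 19.01 mo in p53+/m and 17.31 mo in p53+/-, and Calr 20.34 mo in p53+/m and 17.67 mo in p53+/-. Dnajc3 was placed at 4.64 mo in p53+/m and 15.68 mo in p53+/-, but its trend did not run in 1 direction. A level on such a trend need not fix an age. The Dnajc3 mean of 8.152 in p53+/m HSC lay below the lowest mean of the WT ages, 8.154 at 6 mo. Its 4.64 mo is therefore not read as a young age. These ages are descriptions without a test, and 2 arrays a group limit their precision.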

How the data were processed

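The authors normalized the scans by GC-RMA and deposited log2 expression values, here of 22626 probe sets beside 64 controls. The GCRMA version is not given in the sources used here, nor is the number of normalization runs. The median of an array was 3.93 to 4.10, and the deposited values were taken unchanged. No sample was left out, and array number limits the precision. Whether the arrays of a group came from separate sorts is not stated beyond pools of mice. For age, p-values measure the spread of the arrays around the trend, misfit of the trend included. In the other comparisons they measure the spread between arrays of a group, shared over all groups fitted.

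All tests were made in limma 3.58.1 in R 4.3.3 (lmFit, eBayes) over all 22626 probe sets, with Benjamini-Hochberg adjustment, and a gene passed at an adjusted p under 0.05 and 2-fold. Age used a quadratic trend over the 8 WT HSC arrays (21 mo minus 2 mo), HSC against WBM the group means of 10 WT arrays, and genotypes those of 12 HSC arrays. The SE is that of the fit. The genes named were those that passed, the 5 largest changes in each direction among genes at log2 5 or above on 2 arrays, those the study names, and the ER and Hsp90 classes. The members, lists and tests were chosen with earlier results of these data known, and the procedure was checked on simulated data. Of the 2 pathway lists, 27 of 30 and 36 of 39 symbols were measured. Marker lists of HSC, B lineage, T and NK cells and platelets were also read, and HSC markers averaged 7.91 to 8.92 per WT HSC array and 5.74 to 5.75 in WBM. B lineage markers averaged 3.62 to 4.43, T and NK markers 3.56 to 4.35 and platelet markers 5.61 to 6.58 per WT HSC array. Alternatives left out each array and varied the filter, threshold, normalization, choice of probe sets, shape of the trend and arrays fitted together. Promoters are those of RefSeq, and protein sequences were not used here. Dnajc19, whose probe sets carry 2 symbols, was not analysed here.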

Additional observations from a re-analysis of the deposited data

How the results depend on the processing

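The count of chaperone genes higher with age was 3, and leaving out 1 array gave 0 to 10 (10 without 12 mo B). It was 0 with group means of the 4 ages (0.67% of all genes), 5 with probe sets at log2 5 or above on 2 arrays (8.8%), 8 without both 12 mo arrays (4.58%), 9 with the 2 and 21 mo arrays alone (4.51%) and 5 with group means of all 14 arrays (3.57%). Of 17 settings, Calr lost its call in 7, Hspa5 in 9 and Dnajc3 in 13. Arrays of the same letter were not paired, since the deviations of same-lettered arrays correlated at -0.307 to 0.163 over 21 pairs of groups. With the letter as a replicate block, 1 gene, Calr, was higher with age, beside 0.629% of all genes. The counts of the other comparisons then stayed within 1.5 times. The count lower in HSC than WBM was 4, beside 10.5% of all genes. It was 7 with no fold minimum (12.2% of all genes) and 8 with the 4 arrays at 2 mo alone (11.8%). In refits that left a group with 1 array, that array was taken to vary like the other groups. With the 6 arrays at 12 mo alone, the genotype counts were 0 higher and 0 lower in each comparison, beside 0% of all genes. They moved when some single arrays were left out, in refits that leave 1 array in a group. The median difference in age read from the trend, p53+/m minus p53+/-, was 0.77 mo, and 2.88 mo over the 10 genes with a trend in 1 direction. Over all genes these differences were -0.43 and -1.1 mo.

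Signs turned in 8 refits of named genes, none of them for a gene past the test, while 57 refits lost a call, 36 gained one and 1051 kept direction and side of the threshold, among them those of uncalled genes. Pdia4 changed with age by 0.0242 after quantile normalization and by -0.0394 to 0.00836 with 1 array left out (positive without 21 mo A). Against WT with 1 array left out, Pdia3 in p53+/m ran between -0.00611 (without 12 mo B) and 3.77, and in p53+/- between -2.64 and 1.13, with 1.13 without 12 mo A and 0.56 without p53+/- array B. In p53+/- over WT, Dnaja2 ran between -1.40 and 3.45 and Canx between -0.14 and 1.60, both negative without 12 mo B, and Canx stood at -0.00895 as the mean of its probe sets. The cause of these differences was not tested.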

Other observations

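Probe sets of a chaperone gene did not always move together. Of 23 genes with several probe sets at a mean of 5 or above, 16 had changes with age of the same sign on all, and the exceptions were Dnajb1, Dnajb6, Dnajc1, Dnajc14, Hspa14, Hspa4 and Hspa8. Dnajb6 ran between -0.57 and 3.51 over 4 probe sets, and the 1 with the largest change read 7.43 and 7.20 at 21 mo, against 4.12 and 3.38 at 2 mo. In HSC against WBM, 1 of its probe sets was higher by 2.96 and another lower by 1.52, both past the test.

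One chaperone probe set passed the test between genotypes, and it was not the one its gene was read on. This second probe set of Hsp90aa1 read 13.20 and 13.23 in p53+/m HSC, against 11.40 and 11.63 in WT HSC of 12 mo, a log2 difference of 1.70 ± 0.19 (SE, adjusted p = 0.0198). It read 12.12 and 12.41 in p53+/- HSC. On the probe set used for the gene, the p53+/m arrays stood at 13.53 and 13.68 and the WT arrays at 13.64 and 13.20, a difference of 0.19. The gene and its values were chosen after they were seen.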
